A study of Mus musculus with 191 samples.

Results

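The genes described here are 31 members of the cholesterol pathway, taken as a fixed list of gene symbols: 8 early mevalonate enzymes, 12 squalene and sterol enzymes, 4 regulators of the sterol-sensing transcription factor SREBP, 3 genes of intracellular transport and uptake, and 4 efflux transporters. They were read in RNA sequencing tables of 5 mouse tissues, the largest of which holds 18556 genes. All 31 were listed in the ear skin table, 30 in those of liver and of gut, and 28 in those of lung and of bone marrow. Npc1l1 was listed in skin alone, and Abcg5 and Abcg8 were not listed in bone marrow and lung. In skin, Abcg5 and Abcg8 were under the mean value of 1 needed for testing, which left 29 members there. All other listed members passed that filter.

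The series holds 191 libraries from C57BL/6 mice. Bone marrow, gut, liver and lung came from wild-type mice given either control IgG or anti-Ly6G (clone 1A8), an antibody to a neutrophil surface protein, both at 3 µg per g of body weight for 2 days. Each tissue had 18 libraries per antibody, 3 mice at each of 6 Zeitgeber times (ZT, counted in hours from the start of light): 1, 5, 9, 13, 17 and 21. Ear skin came from 1 mouse per group at each of 16 ZT. The 16 control skins were labelled as wild type given diphtheria toxin (DT) at 10 µg per kg for 2 days. The 16 iDTR skins (Mrp8CRE; iDTR) received the same DT and carry an inducible DT receptor that a Cre driven by the Mrp8 promoter is meant to switch on in neutrophils. The 15 Bmal1-flox skins (Mrp8CRE; Bmal1-flox, no ZT 16) carry the same Cre with floxed Arntl, the gene of the clock activator BMAL1, and received no DT per the labels. Genotype and DT therefore cannot be told apart between Bmal1-flox and control. Some of the antibody-treated mice were housed in cabinets with inverted light, and the labels do not say which ones.

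Every cell can make cholesterol from acetyl-CoA through mevalonate, squalene and lanosterol, and the early part of the route also supplies the lipid anchors of prenylated proteins. SREBP, the product of Srebf2, turns on most of these enzymes when membrane sterol falls: Scap escorts it out of the endoplasmic reticulum, and the Insig proteins hold it back. In liver this programme follows feeding and fasting, gut absorbs and excretes sterol, and the sebaceous glands of skin make squalene, sterols and wax esters as secretions.

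The promoters of the members gave a first view of what they share outside expression. RefSeq promoter windows (GRCm38.p6, 250 bases before to 50 after a gene's start, 300 in all) were at hand for 25 members in 32 windows. Both strands were searched for 3 motifs, none of which contains another, though matches can share end letters: the sterol regulatory element TCACNCCAC, the CCAAT box that NF-Y binds, and the E-box CACGTG that clock activators and other factors bind. CCAAT was in 22 of the 32 member windows (68.8%) against 37.4% of all 32851 windows, and in 16 of 17 synthesis enzymes with a window. CACGTG was in 7 of 32 member windows (21.9%), those of Hsd17b7, Sc5d, Dhcr7, Scap, Insig1 and Abca1, against 7.15% of all. TCACNCCAC was in 1 member window, that of Hmgcs1, against 1.24% of all. These are letter matches and show no binding.

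Printed below are the 250 bases before the start, 5′ to 3′ on the gene's strand, of members whose values the results turn on and whose stretch holds no annotated exon. Capitals mark the motifs, with ATTGG standing for CCAAT on the other strand. Hmgcs1 (HMG-CoA synthase) was read at chr13:119690101-119690350 on the + strand, Pmvk (phosphomevalonate kinase) at chr3:89454291-89454540 on the + strand, and Mvd (mevalonate diphosphate decarboxylase) at chr8:122443423-122443672 on the - strand. Insig2 was read at chr1:121332590-121332839 on the - strand, and Abca1, a sterol efflux pump, at chr4:53159896-53160145 on the - strand.
Hmgcs1: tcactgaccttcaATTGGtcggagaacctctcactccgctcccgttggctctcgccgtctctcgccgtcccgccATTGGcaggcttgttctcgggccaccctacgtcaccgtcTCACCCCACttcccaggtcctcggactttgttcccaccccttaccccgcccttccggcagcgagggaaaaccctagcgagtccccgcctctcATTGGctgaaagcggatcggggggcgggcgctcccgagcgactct
Pmvk: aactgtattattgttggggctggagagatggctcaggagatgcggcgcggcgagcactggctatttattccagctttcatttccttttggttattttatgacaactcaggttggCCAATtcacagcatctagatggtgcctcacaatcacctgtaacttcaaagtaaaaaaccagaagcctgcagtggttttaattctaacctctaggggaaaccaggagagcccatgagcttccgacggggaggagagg
Mvd: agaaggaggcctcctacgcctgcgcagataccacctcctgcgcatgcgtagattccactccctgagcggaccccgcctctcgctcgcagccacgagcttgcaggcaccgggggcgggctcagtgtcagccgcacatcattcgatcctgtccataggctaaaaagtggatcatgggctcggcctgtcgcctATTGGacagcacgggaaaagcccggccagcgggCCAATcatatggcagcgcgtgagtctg
Insig2: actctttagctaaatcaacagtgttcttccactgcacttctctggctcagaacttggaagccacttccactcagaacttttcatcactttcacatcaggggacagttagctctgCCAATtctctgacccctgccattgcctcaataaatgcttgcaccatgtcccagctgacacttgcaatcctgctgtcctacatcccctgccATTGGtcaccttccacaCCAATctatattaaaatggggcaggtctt
Abca1: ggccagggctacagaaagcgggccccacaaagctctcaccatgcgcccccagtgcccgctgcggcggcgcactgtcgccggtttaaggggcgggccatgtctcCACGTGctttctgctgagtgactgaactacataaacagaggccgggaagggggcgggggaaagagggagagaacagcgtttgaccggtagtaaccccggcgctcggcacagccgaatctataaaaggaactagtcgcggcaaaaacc
Hmgcs1 held the sterol regulatory element with 3 CCAAT boxes, Insig2 held 3 CCAAT boxes, Mvd held 2 and Pmvk held 1. Abca1 held 1 E-box and no CCAAT. The windows of Abcg5 and Abcg8, which encode the 2 parts of the sterol excretion pump and lie head to head on chromosome 17, overlapped by 209 bases.

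Some measurements on the libraries bear on what follows. If the lowest value of a library stands for 0.5 read, depths ran from 7.68 M to 30.9 M reads (M, mega); this is inferred from the values and not stated in the labels. In bone marrow, 1 of 6 mature neutrophil markers differed under anti-Ly6G, where 9.95% of all genes were higher and 7.16% lower. It was Ly6g, the gene of the antibody's target, and it was higher (limma, adjusted p 0.0498, just under the threshold of 0.05). In skin, all 4 tested mature neutrophil markers were higher in iDTR than in control, beside 30.6% of all genes. Their summed level over the 5 listed had a median of 29.4 in control, 53.6 in iDTR and 30.0 in Bmal1-flox. Gt(ROSA)26Sor, the transcript of the locus where such receptor alleles are usually placed, was 0.22 to 1.83 in the skins labelled control and 0.24 to 1.53 in iDTR, against 21.0 to 30.2 in Bmal1-flox, so the control skins were like iDTR and unlike Bmal1-flox in this transcript. This goes against their wild-type label, and every direction drawn from them below is against the skins labelled control. In lung, Dbp, a clock output that peaked at ZT 8.6 in IgG liver, peaked at labelled ZT 3.4 in IgG and 0.3 in anti-Ly6G lung, so the lung times are in doubt as well. Markers of the labelled tissues were looked at by summed level. In IgG libraries, 5 hepatocyte genes summed to a median of 85993 in liver and 4 alveolar and airway genes to 57623 in lung. In IgG bone marrow, 7 neutrophil precursor genes summed to 12803, and in control skin 6 keratinocyte genes summed to 27236. In IgG gut, 3 goblet cell genes summed to 8262, while only 3 of 5 enterocyte genes were listed, summing to 760. Of these, Vil1 had a mean of 703 in IgG gut, Fabp2 41.3 and Alpi 2.05.

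Skin held the most called differences in level. Against the skins labelled control, 19 of 29 tested members were lower and 4 were higher in iDTR (adjusted p under 0.05, limma, all genes of the tissue tested together), while 32.4% of all genes were lower and 30.6% higher. The median member difference was -0.42 on the log2(value + 1) scale, beside -0.02 over all 15946 tested genes. The largest differences were at Msmo1 and Hsd17b7 near the sterol end of the pathway, and lower levels ran from the first enzyme, Acat2, to the efflux pumps Abca1 and Abcg1. In bulk tissue, fewer cells of a type and less RNA per cell cannot be told apart.

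Msmo1, an oxygenase that takes part in removing methyl groups from the sterol ring, ranged from 449 to 681 (median 545) in control. It ranged from 85.5 to 170 (median 118) in iDTR and from 405 to 574 (median 485) in Bmal1-flox. Every iDTR library was below every control and every Bmal1-flox library. The difference from control was -2.23 ± 0.06 (SE, log2), 4.68-fold lower, with an adjusted p of 2.2e-32. Hsd17b7, the keto-reductase that closes the same demethylation cycle, had a median of 323 (243 to 400) in control and 72.6 (55.1 to 96.6) in iDTR. Its groups did not overlap either, and it was 4.21-fold lower (log2 -2.07 ± 0.08, adjusted p 7.6e-28). Nsdhl, the dehydrogenase that acts between those enzymes, was lower by less, at log2 -0.66 ± 0.06. The share of all genes whose groups do not overlap is not given here, for these members or those below.

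Among the early mevalonate enzymes, 6 of 8 were lower and none was higher, beside 32.4% and 30.6% of all genes. Acat2, which joins acetyl groups at the entry of the pathway, ran from 139 to 214 (median 174) in control and from 53.1 to 91.2 (median 62.4) in iDTR, and was 2.61-fold lower (log2 -1.39 ± 0.06, adjusted p 8.4e-25). Hmgcs1 had a median of 833 (683 to 1037) in control and 458 (358 to 585) in iDTR, a log2 difference of -0.89 ± 0.06. All iDTR libraries were below all control libraries for both genes. Mvd was lower by log2 -0.99 ± 0.07, the isomerase Idi1 by -0.86 ± 0.07, Pmvk by -0.64 ± 0.05 and Fdps, the farnesyl diphosphate synthase, by -0.18 ± 0.05. Mvk, the first mevalonate kinase (log2 0.06 ± 0.05), and Ggps1, which feeds protein prenylation rather than sterols (0.01 ± 0.05), did not pass the test.

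Beside 32.4% and 30.6% of all genes, 8 of the 12 squalene and sterol enzymes were lower and 2 higher. Besides Msmo1, Hsd17b7 and Nsdhl these were Cyp51, the lanosterol demethylase (log2 -1.17 ± 0.07), Lss, which closes the sterol rings (-1.14 ± 0.07), the sterol reductase Tm7sf2 (-0.87 ± 0.06), the squalene epoxidase Sqle (-0.54 ± 0.07) and the squalene synthase Fdft1 (-0.42 ± 0.06). Cyp51 went from a median of 379.5 in control to 170.3 in iDTR, and Lss from 299 to 142, with no overlap for either. The higher members were the desaturase Sc5d (0.24 ± 0.08) and Lbr (0.10 ± 0.04, adjusted p 0.033), a lamin-binding protein with the same reductase activity as Tm7sf2. The Lbr call was lost in 10 of 52 alternative settings. Ebp (-0.02 ± 0.05) and Dhcr7, the last reductase (-0.11 ± 0.07, adjusted p 0.14), did not pass. Enzymes of adjacent steps therefore differed in size of change, with Nsdhl at -0.66 beside Hsd17b7 at -2.07.

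The regulators moved in different directions. Srebf2 was higher in iDTR, from a median of 201 (167 to 219) in control to 239 (175 to 295), by log2 0.24 ± 0.06 (adjusted p 0.00019), with overlapping groups. Both genes of the retention proteins were lower: Insig1, itself an SREBP target, by -0.54 ± 0.07, and Insig2 by -0.34 ± 0.05, each at 16 of 16 ZT. Scap was at 0.03 ± 0.03 and did not pass. In transport, Npc1, which exports cholesterol from lysosomes, was lower (-0.27 ± 0.05), and Stard4, a cytosolic sterol carrier, was at 0.03 ± 0.09. Npc1l1, a sterol uptake protein, was higher at a very low level (median 0.78 in control and 1.37 in iDTR, log2 0.41 ± 0.09). Both tested efflux pumps were lower: Abca1 had a median of 159 (131 to 200.0) in control and 79.4 (57.8 to 126) in iDTR (log2 -0.95 ± 0.08, adjusted p 1.6e-14), and Abcg1 was lower by -0.28 ± 0.07.

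**Figure D1:**
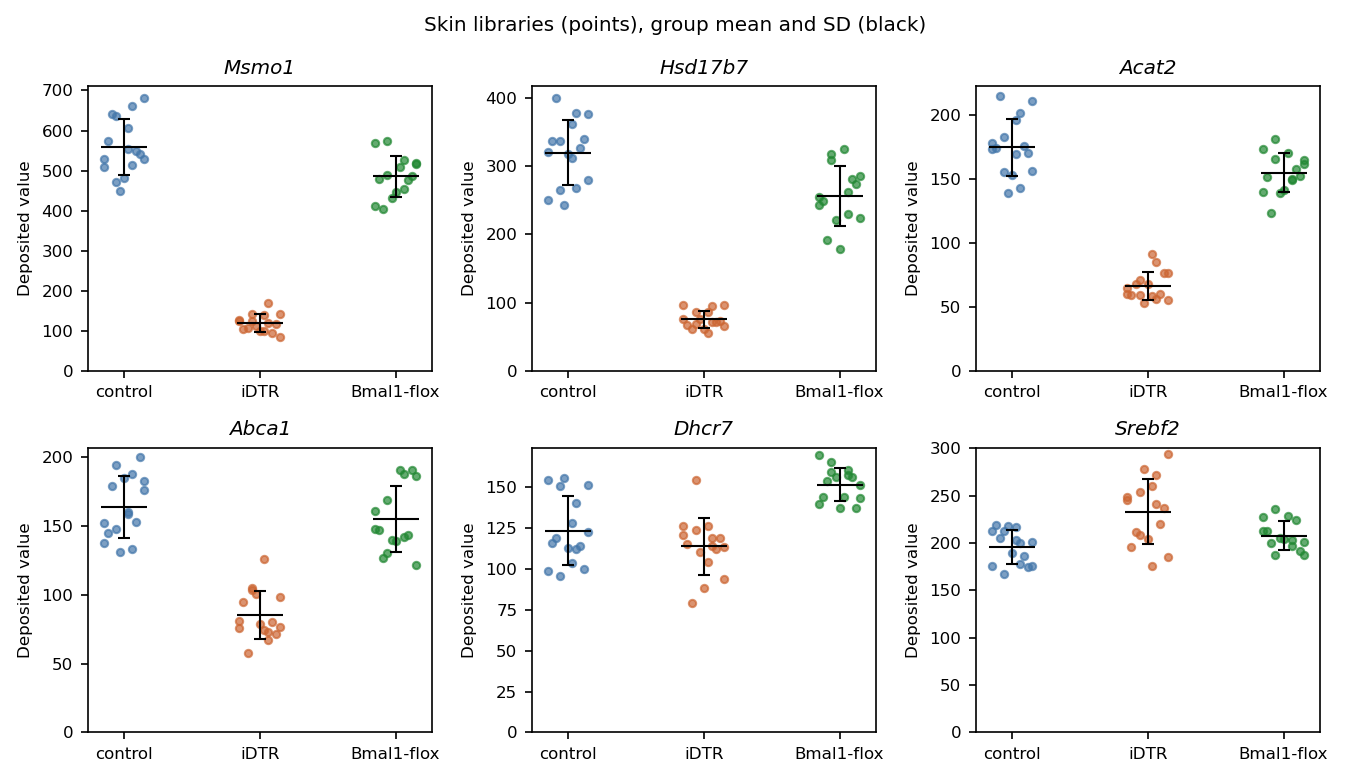
Deposited normalized values (vertical axis, from 0) of 6 members in every skin library by group (16 control, 16 iDTR, 15 Bmal1-flox; points), with the group mean and SD in black. For Msmo1, Hsd17b7, Acat2 and Abca1 all iDTR points lie below all control points; for Dhcr7 the Bmal1-flox points lie between 137 and 170, and for Srebf2 the iDTR points spread from 175 to 295.

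Of other genes of the pathway, from a list of 19, 7 of 17 tested were lower and 2 higher in iDTR, beside the 32.4% and 30.6% of all genes, and nothing particular to them is read from these counts. Soat1, which stores cholesterol as esters and is abundant in sebaceous glands, fell from a median of 345 (225 to 462) in control to 21.6 (17.2 to 29.6), log2 -3.87 ± 0.08. Cyp27a1, a sterol hydroxylase, was lower by -0.95 ± 0.10, and Srebf1, the sister gene of Srebf2 that drives fatty acid synthesis, by -0.56 ± 0.04. Ch25h, an interferon-responsive hydroxylase that makes an oxysterol, was higher by 1.83 ± 0.13, from a mean of 0.55 ± 0.35 (SD, n = 16) to 4.66 ± 1.92 (SD, n = 16).

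Markers of skin cell types also differed in iDTR, where 32.4% of all genes were lower and 30.6% higher. All 9 sebaceous gland markers (Soat1 among them) were lower in iDTR, and their summed level ran from 2153 to 3651 in control, 112 to 182 in iDTR and 1701 to 2811 in Bmal1-flox. Scd3 and Awat2 were near 0 in iDTR: the desaturase Scd3 ran from 13.4 to 40.5 in control and 0.431 to 1.69 in iDTR, and the wax synthase Awat2 from 1.77 to 6.62 and 0.272 to 1.58. Far2, which makes the fatty alcohols of wax esters, was 606 ± 84.0 in control and 16.5 ± 7.12 in iDTR (SD, n = 16 each), and the elongase Elovl3 was 297 ± 59.8 and 4.80 ± 3.06 (SD, n = 16 each). All 7 adipocyte markers were lower (summed median 476 in control, 293 in iDTR), as were all 5 skeletal muscle markers (3161 and 2470). Of 6 keratinocyte markers 3 were higher and 1 lower (27236 and 36251). The part of these cell types in the member differences was not tested.

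In Bmal1-flox skin, 3 of 29 members were lower and 1 was higher than in the skins labelled control, where 3.21% of all genes were lower and 2.41% higher. Hsd17b7 was lower by log2 -0.32 ± 0.08 (median 255 against 323), Lss by -0.23 ± 0.07 and Pmvk by -0.17 ± 0.05, all with overlapping groups. Dhcr7 was higher by 0.31 ± 0.07 (adjusted p 0.0019) at 15 of 15 ZT, with a range of 137 to 170 against 95.6 to 156 in control, also overlapping. The Lss call (adjusted p 0.037) was lost in 15 of 52 alternative settings. Among sebaceous markers 2 of 9 were lower in Bmal1-flox. Of the other pathway genes 2 of 17 were lower (Soat1, -0.31 ± 0.08, and the lipid carrier gene Stard5, -0.20 ± 0.04) and 2 higher (the oxysterol receptor Nr1h2, 0.15 ± 0.03, and Npc2, the lysosomal partner of Npc1, 0.15 ± 0.04).

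The direct contrast of iDTR with Bmal1-flox, which does not use the control libraries' level, called 23 of 29 members, beside 61.5% of all genes. Of these 20 were lower and 3 higher in iDTR, as were 4944 and 4860 of the 15946 genes. Msmo1 was lower by log2 -2.04 ± 0.07, Hsd17b7 by -1.75 ± 0.08 and Acat2 by -1.22 ± 0.06. Dhcr7, not called against control, was lower in iDTR than in Bmal1-flox by -0.43 ± 0.07, at 15 of 15 ZT. These 3 contrasts share libraries and one fit, and iDTR and Bmal1-flox also differ in DT.

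**Figure D2:**
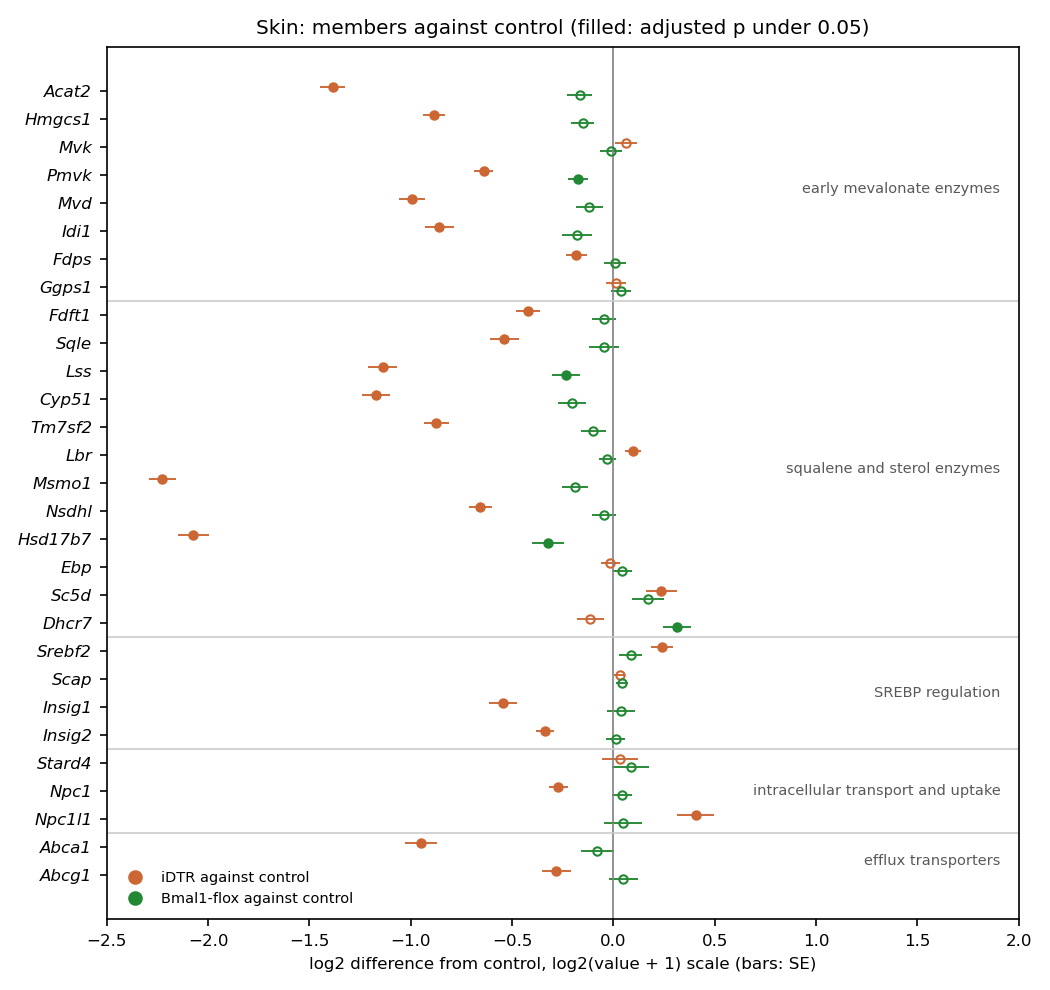
Difference of each of the 29 tested members from the skins labelled control (horizontal axis, log2(value + 1) scale, bars SE), for iDTR (orange) and Bmal1-flox (green), grouped by role, with filled points at an adjusted p under 0.05. iDTR points run from -2.23 at Msmo1 to 0.41 at Npc1l1, while Bmal1-flox points lie between -0.32 and 0.31.

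Daily rhythms of the members were weak in skin. A 24 h wave passed the test for 0 of 29 members in control (1 at an unadjusted p under 0.05), where 0.383% of all genes passed and 9.73% did so unadjusted. In Bmal1-flox 0 passed (2 unadjusted), against 0.326% and 8.51% of all genes. In iDTR 2 passed, against 10.9%: Lbr (amplitude 0.21 ± 0.04 log2, peak at ZT 22.2 ± 0.7 h) and Acat2 (0.22 ± 0.06, peak at ZT 22.0 ± 1.0 h). The Acat2 call ended when any 1 of 5 iDTR libraries (replicates 4, 5, 7, 11 and 13) was left out. The test of a difference in rhythm from control called 0 members in iDTR (1 unadjusted), beside 0.144% of all genes (15.2% unadjusted), and 0 in Bmal1-flox (0 unadjusted), beside 0% (3.53% unadjusted).

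Liver held the most rhythmic members. In mice given IgG, 17 of 30 members followed a 24 h wave (limma F test, adjusted p under 0.05), against 42.9% of all genes, and in mice given anti-Ly6G 24 did, against 34.7%. Amplitude here is the height of the fitted wave above its mean on the log2 scale. The rhythmic synthesis enzymes peaked from ZT 20.01 through lights on to ZT 4.50 under IgG and between ZT 18.9 and 23.6 under anti-Ly6G, whereas the sterol excretion and lysosomal export genes peaked between ZT 6.2 and 8.0. Under anti-Ly6G the fitted waves of the synthesis enzymes were larger and earlier, but no member passed the adjusted test of that difference.

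Hmgcs1 had values of 490.4, 445.9 and 559.4 at ZT 1, 450.6, 285.7 and 382.1 at ZT 5, 137.5, 460.4 and 146.4 at ZT 9, 57.7, 163.8 and 189.7 at ZT 13, 178.2, 236.7 and 198.2 at ZT 17, and 377.7, 405.3 and 344.6 at ZT 21 under IgG. Under anti-Ly6G the values were 464.7, 393.5 and 639.7 at ZT 1, 214.7, 248.9 and 203.0 at ZT 5, 97.9, 122.4 and 117.4 at ZT 9, 67.9, 185.4 and 196.9 at ZT 13, 284.5, 409.4 and 319.1 at ZT 17, and 510.1, 445.3 and 599.3 at ZT 21. The antibody groups overlapped at ZT 1 and 13 and were apart at ZT 5, where IgG was higher, at ZT 9, where IgG was higher, and at ZT 17 and 21, where anti-Ly6G was higher. The fitted amplitude was 0.95 ± 0.14 (SE) with a peak at ZT 1.0 ± 0.6 h under IgG, and 1.19 ± 0.14 with a peak at ZT 22.2 ± 0.5 h under anti-Ly6G. The test of the difference gave an unadjusted p of 0.0013 and an adjusted p of 0.35.

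The other early enzymes followed a like course. Mvd had an amplitude of 0.51 ± 0.15 (peak ZT 20.5) under IgG and 1.11 ± 0.15 (peak ZT 20.1) under anti-Ly6G, a fitted peak-to-trough fold of 2.02 against 4.68. Mvk, at 0.32 ± 0.08, moved its peak from ZT 3.9 ± 1.0 to ZT 22.4 ± 0.6 with an amplitude of 0.53 ± 0.08, and had the smallest p of the list for a differential rhythm (7.0e-05, adjusted p 0.18). Pmvk went from 0.49 ± 0.08 (ZT 22.5) to 0.80 ± 0.08 (ZT 20.8), and Idi1 from 0.39 ± 0.10 (ZT 2.7) to 0.49 ± 0.10 (ZT 22.2). Acat2 and Fdps passed the rhythm test under anti-Ly6G, with amplitudes of 0.48 ± 0.08 and 0.73 ± 0.09 against 0.20 ± 0.08 and 0.27 ± 0.09 under IgG, where they missed it. Both passed under IgG (adjusted p 0.040 and 0.035) without 1 IgG library at ZT 9, replicate 8, which stood apart from its triplet. Ggps1 passed in neither group.

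Of the squalene and sterol enzymes, 4 of 12 passed under IgG, beside 42.9% of all genes, and 10 under anti-Ly6G, beside 34.7%. The IgG count was 8 without that ZT 9 library. Lss ran between 49.7 and 112.0 under IgG, with the highest value in that library and 54.1 and 52.0 in the others of ZT 9, while under anti-Ly6G its libraries at ZT 5 and 9 were all between 41.6 and 47.1 and those at ZT 17 and 21 between 89.7 and 154.6. Its amplitude was 0.18 ± 0.09 and 0.73 ± 0.09 (differential p 0.00021, adjusted 0.27), and the IgG amplitude without the library was 0.28 ± 0.08 (adjusted p 0.021). Sqle (0.27 ± 0.10 and 0.69 ± 0.10), Dhcr7 (0.23 ± 0.08 and 0.61 ± 0.08) and Fdft1 (0.26 ± 0.09 and 0.54 ± 0.09) showed the same pattern of values. Cyp51, Nsdhl, Sc5d and Ebp passed in both groups, Msmo1 and Hsd17b7 under anti-Ly6G and not IgG, and Tm7sf2 and Lbr in neither. Without the library, Msmo1, Lss, Sqle, Dhcr7 and Fdft1 also passed under IgG (Msmo1 with an adjusted p of 0.038) and Ebp did not (0.053). Nsdhl moved its peak from ZT 4.5 ± 1.0 to ZT 23.6 ± 0.7.

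**Figure D3:**
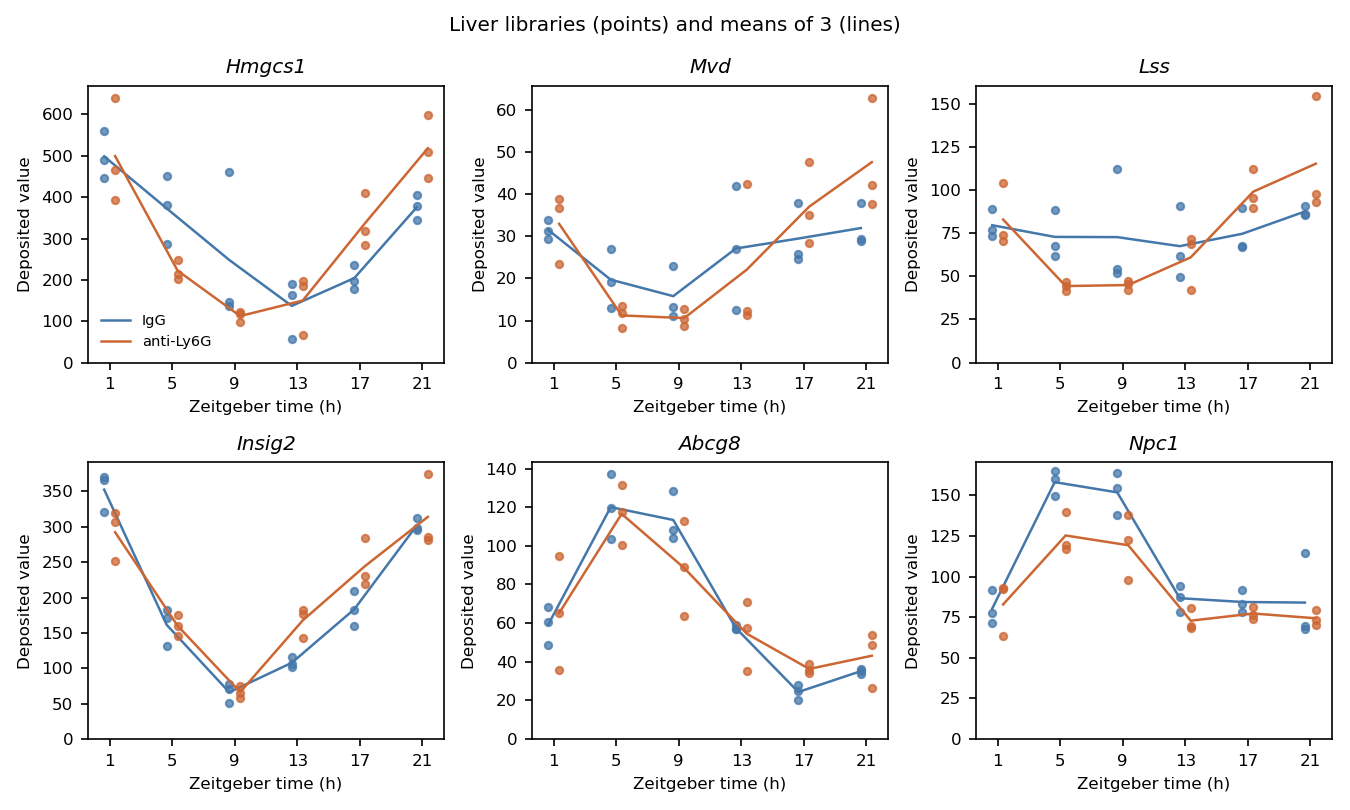
Deposited normalized values (vertical axes, from 0) of 6 members in each liver library by Zeitgeber time in hours, for IgG (blue) and anti-Ly6G (orange), with lines through the means of 3. Under anti-Ly6G, Mvd and Lss are low at ZT 5 and 9 and high at ZT 17 and 21. By its means there, Hmgcs1 is lowest at ZT 9 and 13 and highest at ZT 21 and 1. For IgG, 1 library at ZT 9 lies far above its triplet in Hmgcs1 (460.4 against 137.5 and 146.4) and Lss (112.0 against 54.1 and 52.0). Abcg8 and Npc1 peak at ZT 5 to 9 in both groups.

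Counted over the 20 synthesis enzymes, passing or not, the fitted amplitude was larger under anti-Ly6G for 20 and the fitted peak earlier for 18, with a median amplitude ratio of 1.69 and a median peak shift of -3.05 h. Over all 12504 tested genes the ratio was 0.88 and the shift -0.64 h. Among genes rhythmic in both groups, all 9 synthesis enzymes were earlier (median -3.25 h), as were 70.6% of 3211 genes (median -0.70 h). Of 12 clock and clock output genes, 11 were earlier (median -0.83 h). The adjusted test of differential rhythm called 0 of 30 members, beside 0.00800% of all genes, with a smallest adjusted p of 0.18. At an unadjusted p under 0.05 there were 21 members of 30, beside 9.19% of all genes. The counts are descriptions, since the enzymes share libraries.

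The ZT 9 IgG library that stood apart was high in Hmgcs1, Lss, Sqle (137.8 against 45.6 and 70.7) and Mvk (28.5 against 11.02 and 15.5). Without it, 22 members were rhythmic under IgG, the median shift of the enzymes was -2.24 h, the median amplitude ratio 1.58 and the count at an unadjusted p under 0.05 was 18. Without ZT 5 that count was 13, and the number rhythmic under IgG fell to 11 without ZT 17.

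The regulators and transporters had their own times. Insig2, whose liver transcript responds to fasting, had one of the largest amplitudes of the list: 1.13 ± 0.10 with a peak at ZT 22.5 ± 0.3 h under IgG, and 0.98 ± 0.10 at ZT 21.2 ± 0.4 h under anti-Ly6G. Its IgG values were 320.5 to 370.3 at ZT 1 and 51.2 to 77.2 at ZT 9, and its anti-Ly6G values 251.0 to 319.5 and 58.4 to 74.8. Insig1 and Srebf2 were larger under anti-Ly6G (0.69 ± 0.10 against 0.31 ± 0.10, and 0.34 ± 0.05 against 0.14 ± 0.05), with peaks at ZT 19.1 and 20.7. The IgG rhythm call of Insig1 (adjusted p 0.047) was lost in 26 of 48 alternative settings, that library's removal among them. Scap peaked in the light, at ZT 4.0 ± 0.5 h and 2.0 ± 0.5 h.

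The sterol excretion pair peaked in the middle of the light phase. Abcg8 was between 103.5 and 137.3 at ZT 5 and between 20.4 and 28.0 at ZT 17 under IgG, and between 100.6 and 131.5 and between 34.2 and 38.8 under anti-Ly6G. Its amplitude was 1.13 ± 0.10 (peak ZT 6.6 ± 0.4 h) and 0.80 ± 0.10 (ZT 6.2 ± 0.5 h). Abcg5 went with it, at 0.93 ± 0.10 (ZT 8.0) and 0.73 ± 0.10 (ZT 7.9). Npc1 peaked at ZT 7.3 and 6.4 (0.52 ± 0.08 and 0.39 ± 0.08), and Stard4 (0.28 ± 0.07, ZT 6.3) and Abcg1 (0.48 ± 0.10, ZT 7.1) passed under IgG alone. Each of these 5 genes had a smaller fitted amplitude under anti-Ly6G, with differential p-values between 0.024 (Abcg1) and 0.43 (Npc1) before adjustment. A smaller amplitude was common in liver, as 40.3% of the 12504 tested genes had a larger one under anti-Ly6G (median ratio 0.88). Abca1 was rhythmic in neither group.

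**Figure D4:**
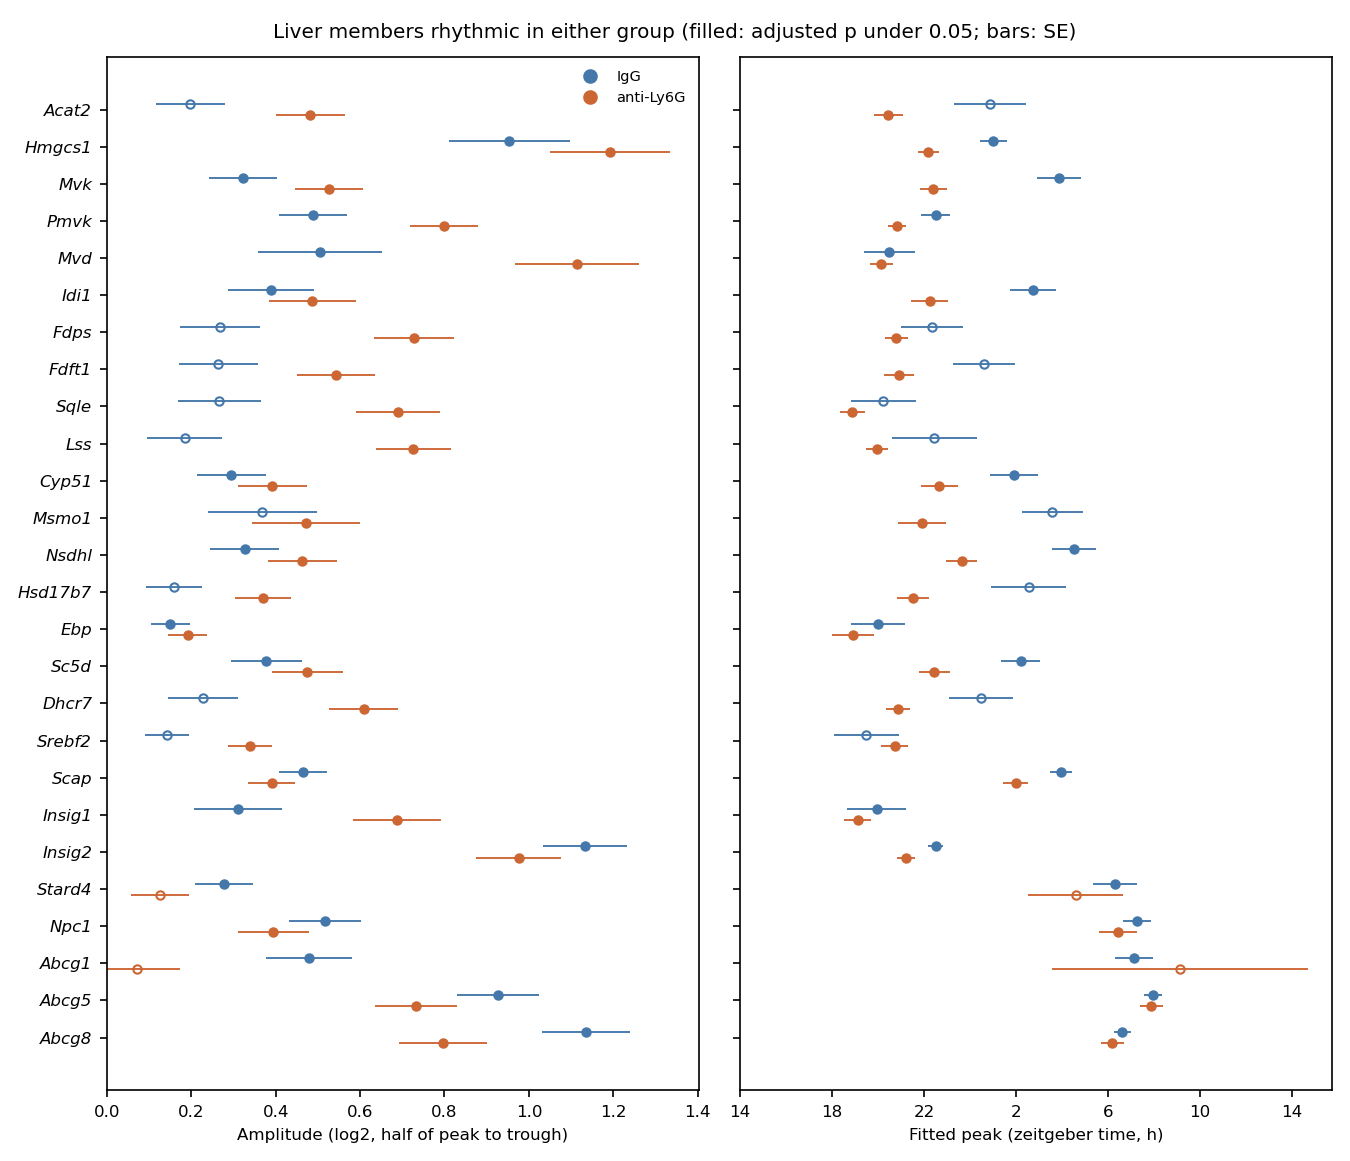
Fitted amplitude (left, log2) and fitted peak time (right, Zeitgeber time in hours, bars SE) of the 26 liver members rhythmic in at least 1 group, for IgG (blue) and anti-Ly6G (orange), with filled points at an adjusted p under 0.05. Synthesis enzymes from Acat2 to Dhcr7 have larger amplitudes under anti-Ly6G, while Stard4, Npc1, Abcg1, Abcg5 and Abcg8 have smaller ones and peak between ZT 4.6 and 9.1.

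Mean levels over the day differed little in liver. Scap was the 1 member of 30 called lower under anti-Ly6G (log2 -0.24 ± 0.06, adjusted p 0.040, lower at 6 of 6 ZT), where 0.624% of genes were lower and 0.776% higher. Its values ran from 78.2 to 209 (median 115) under IgG and from 58.0 to 150 (median 95.2) under anti-Ly6G. The call was lost in 25 of 48 alternative settings, 19 of them a left-out library. The median member difference was -0.10, beside 0.00 over all genes, and 5 of 30 had an unadjusted p under 0.05, against 13.6% of all genes. None of 18 other pathway genes was called for the mean level. Of them 11 were rhythmic under IgG and 9 under anti-Ly6G, beside 42.9% and 34.7% of all genes. Cyp7a1, the rate-limiting enzyme of bile acid synthesis, had the largest amplitude of these, 0.91 ± 0.24 (ZT 15.3) and 1.24 ± 0.24 (ZT 13.7).

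In gut, a smaller set of synthesis enzymes was rhythmic. Under IgG 8 of 30 members passed, against 33.6% of all genes: Acat2, Pmvk, Mvd, Idi1, Lss, Nsdhl, Sc5d and Npc1. Under anti-Ly6G 14 passed, against 24.6%: all of these but Sc5d, with Fdps, Sqle, Tm7sf2, Lbr, Dhcr7, Srebf2 and Abcg1. The IgG share was below the share of all genes. Fitted peaks of the rhythmic enzymes fell between ZT 10.7 and 16.9 under IgG.

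Acat2 was 42.5, 26.3 and 28.5 at ZT 5 and 51.8, 71.2 and 60.1 at ZT 17 under IgG, and 25.7, 23.9 and 21.3 at ZT 5 and 78.7, 52.7 and 52.3 at ZT 17 under anti-Ly6G. ZT 5 held the lowest values of both groups, with every IgG value above every anti-Ly6G value, and at ZT 17 the groups overlapped. Its peak was at ZT 14.2 ± 0.9 h (amplitude 0.39 ± 0.10) under IgG and at ZT 16.5 ± 0.7 h (0.51 ± 0.10) under anti-Ly6G. Idi1 peaked at ZT 13.2 ± 1.0 h and 16.3 ± 1.0 h, and Lss at ZT 11.9 ± 1.2 h and 15.5 ± 1.1 h. Idi1 was 66.3, 80.4 and 89.3 at ZT 5 under anti-Ly6G, all below the IgG values of 168.7, 100.9 and 91.9.

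The 6 synthesis enzymes rhythmic in both gut groups were all fitted later under anti-Ly6G, with a median shift of 2.70 h, where the 2659 genes rhythmic in both had a median of -0.10 h and 12 of 12 clock genes were earlier (median -0.64 h). In each of the 6, 1 IgG library at ZT 5, replicate 13, was the highest of its triplet. It held 168.7 against 100.9 and 91.9 in Idi1, 55.0 against 30.1 and 28.1 in Mvd, and 65.7 against 38.0 and 31.6 in Lss. The gut shift without that library is not given here, and its part in the shift was not tested. The differential rhythm test called 0 of 30 members, beside 0% of all genes. At an unadjusted p under 0.05 there were 3 (Srebf2, Lbr and Sqle), beside 6.49% of all genes, and the smallest adjusted p was 0.68. The rhythm counts rested on single times, as 3 members passed under IgG once ZT 17 was dropped and 5 once ZT 21 was, and 3 passed under anti-Ly6G once ZT 5 was. Single libraries mattered too: leaving out IgG replicate 2 left 4 members under IgG, and leaving out replicate 12 or 17 left 5. Dropping any 1 of the anti-Ly6G replicates 13, 14 and 15 left 8 or 9 under anti-Ly6G. With ZT as a factor in place of the wave, 19 and 22 members passed. The share of all genes under that test is not given here, so these counts have no background.

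**Figure D5:**
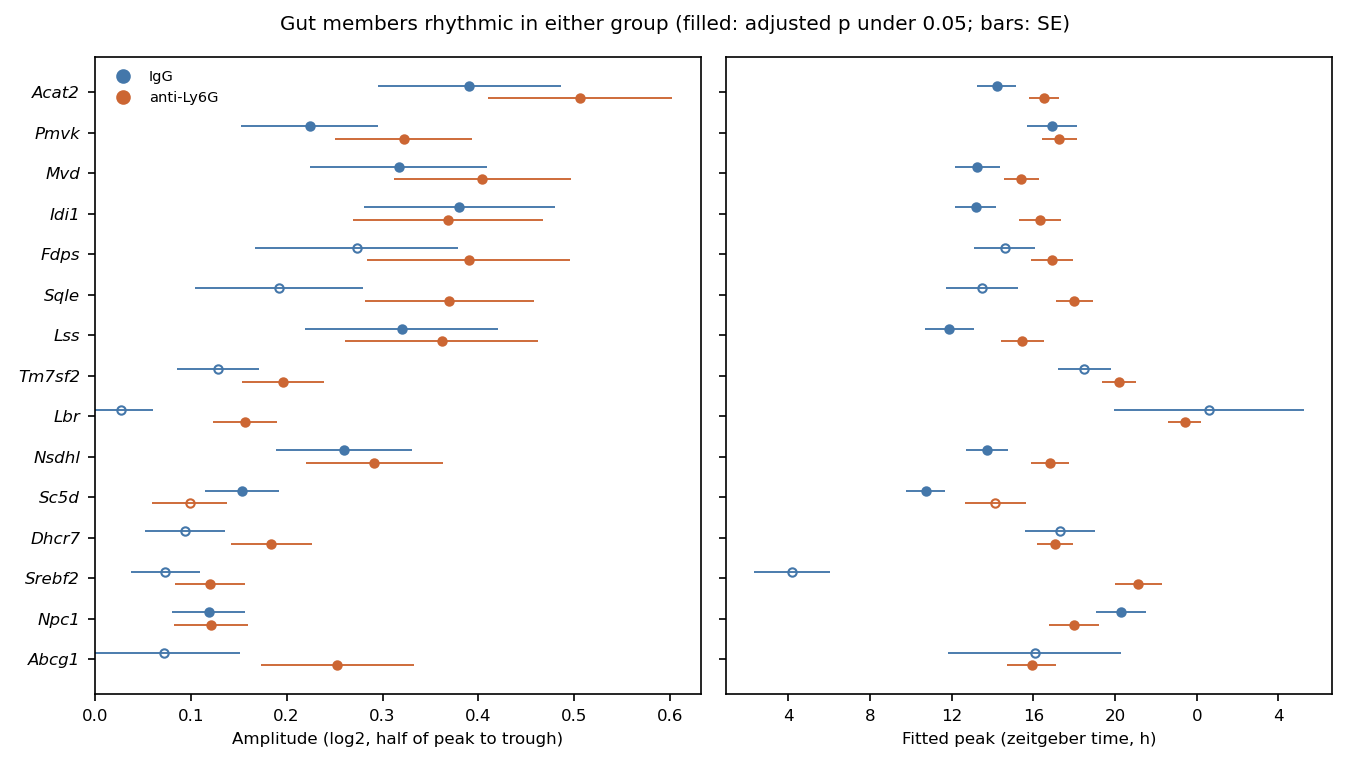
Fitted amplitude (left, log2) and fitted peak time (right, Zeitgeber time in hours, bars SE) of the 15 gut members rhythmic in at least 1 group, for IgG (blue) and anti-Ly6G (orange), with filled points at an adjusted p under 0.05. Peaks of Acat2, Mvd, Idi1, Lss and Nsdhl lie between ZT 11.9 and 14.2 under IgG and between ZT 15.4 and 16.8 under anti-Ly6G.

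No gut member was called for a difference in level between antibodies (0 of 30, limma), beside 0.0132% of all genes. At an unadjusted p under 0.05 there were 11, beside 12.7%. Of the 30, 24 had a negative difference, with a median of -0.07 beside -0.00 over all genes. Sqle (log2 -0.20 ± 0.07, adjusted p 0.26) and Cyp51 (-0.18 ± 0.07) had the lowest values. Dhcr7 (-0.10 ± 0.03) and Stard4 (-0.07 ± 0.03) were below IgG at 6 of 6 ZT, and Abcg1 was at 0.25 ± 0.07 (adjusted p 0.12). None of 14 other pathway genes was called for level. Of them 7 were rhythmic under IgG and 5 under anti-Ly6G, beside 33.6% and 24.6% of all genes. Srebf1 had an amplitude of 0.28 ± 0.07 and 0.40 ± 0.07.

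In bone marrow, 6 of 28 members were called for level under anti-Ly6G, beside 2445 of all 14289 tested genes. Of the members 5 were higher and 1 lower, beside 9.95% and 7.16% of all genes. Nothing particular to the members is read from these counts. The higher members were Mvd, Fdps, Hmgcs1, Msmo1 and Srebf2, and the lower one was Ggps1. Mvd ran from 7.98 to 11.7 (median 10.2) under IgG and from 10.5 to 16.5 (median 12.9) under anti-Ly6G, a log2 difference of 0.30 ± 0.06 (adjusted p 0.00032). Fdps went from a median of 39.4 (31.4 to 49.6) to 48.2 (37.5 to 58.0), by 0.28 ± 0.05, and Hmgcs1 from 35.8 (30.8 to 41.3) to 40.4 (35.5 to 46.2), by 0.16 ± 0.03. These groups overlapped, and the means were higher at 6 of 6 ZT for all 3 genes.

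Srebf2 (0.17 ± 0.04) was likewise higher at 6 of 6 ZT and Msmo1 (0.18 ± 0.06, adjusted p 0.025) at 5. The Msmo1 call was lost without ZT 1, 13 or 21, and that of Ggps1 (-0.15 ± 0.04, adjusted p 0.011) without ZT 9 or 13. The median member difference was 0.05, beside -0.00 over all genes. Of 15 other pathway genes 2 were higher: Soat1 (0.29 ± 0.04) and Scarb1, a lipoprotein receptor (0.13 ± 0.03). Beside these, 6 of 7 neutrophil precursor markers were higher (summed level 11291 to 15111 under IgG, 13828 to 22428 under anti-Ly6G), all 5 erythroid markers were lower (median 5096 and 4378) and 3 of 4 B cell markers were lower (median 409.5 and 386). Their part in the member differences was not tested.

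Rhythms in marrow were few. Under IgG 1 of 28 members passed, beside 1.62% of all genes, and under anti-Ly6G 2 did, beside 0.406%. Abcg1, which exports sterol to lipoproteins, passed in both: its mean was 34.0 ± 4.54 (SD, n = 3) at ZT 5 and 50.6 ± 1.71 (SD, n = 3) at ZT 17 under IgG, and 32.7 ± 0.85 and 49.4 ± 1.48 (SD, n = 3 each) under anti-Ly6G. The amplitude was 0.27 ± 0.04 with a peak at ZT 16.3 ± 0.5 h, and 0.29 ± 0.04 with a peak at ZT 15.8 ± 0.5 h. Insig1 passed under anti-Ly6G alone (0.21 ± 0.04, ZT 17.2 ± 0.8 h), a call lost in 16 of 47 settings. No member was called for a differential rhythm, beside 0.00700% of all genes, and 2 were at an unadjusted p under 0.05, beside 3.87%. Clock genes rhythmic in both marrow groups were earlier under anti-Ly6G in 6 of 6 cases (median shift -3.17 h). Of all 30 genes rhythmic in both, these 6 included, 21 were earlier (median -0.83 h).

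In lung, no member of 28 was called for level, beside 0% of all genes, and 5 were at an unadjusted p under 0.05, beside 9.35%. The 3 members with the largest differences among those 5 were Stard4 (0.14 ± 0.05), Dhcr7 (0.14 ± 0.05) and Nsdhl (0.14 ± 0.05), none with an adjusted p under 0.37. Under IgG 6 members were rhythmic, beside 11.2% of all genes (Acat2, Mvd, Fdps, Tm7sf2, Npc1 and Abca1). Under anti-Ly6G 5 were, beside 12.7% (Acat2, Pmvk, Tm7sf2, Ebp and Npc1). Npc1 had amplitudes of 0.29 ± 0.04 and 0.21 ± 0.04. The differential test called 0, beside 0.0511%, and 2 were at an unadjusted p under 0.05, as were 1717 of all 15641 genes. The anti-Ly6G count fell to 0 without ZT 1 and the IgG count to 3 without IgG replicate 7. Since the times are in doubt, no peak times of lung members are given. In 1 anti-Ly6G library labelled ZT 5 (replicate 1), Dbp was 2.50 and Arntl 42.0, against 24.6 and 29.6 for Dbp and 6.3 and 6.6 for Arntl in the other libraries of that time.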

How the data were processed

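RNA from whole mouse tissues was sequenced as 50-nt single reads on NEBNext Ultra libraries, per the labels' protocols. The deposited tables hold, per tissue, 1 signal value for each gene and library, which the authors normalized on a linear scale; the formula is not given in the sources used here. The submitters' processing notes name CASAVA 1.8, cutadapt 1.7.1, RSEM 1.7.1, limma 3.46 and the mouse build mm10. If the lowest value of a library stands for 0.5 read, only 32.1% to 46.4% of the values of a tissue come out as whole reads (tolerance 0.01), so no count test was run. Values cover counting and animal variation together; replicates are separate mice per the labels.

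Values were taken as log2(value + 1), genes with a mean under 1 were left out, and limma 3.58.1 in R 4.3.3 (trended eBayes) was fitted on all genes of a tissue, with Benjamini-Hochberg adjustment over them and a threshold of 0.05. Antibody effects had ZT as a factor; skin had genotype and a 24 h wave, with 3 contrasts sharing 1 fit. Rhythms were F tests of the wave per group, and differential rhythms F tests of the difference of waves. The fits were checked on simulated data. Every member was eligible to be named: those passing a test or among the 3 largest are given in full, the rest by counts, and at most 4 other pathway genes per comparison. The members and all lists were chosen with earlier results of these data known. Gene positions and exons are GENCODE's on GRCm38, and promoters are RefSeq's. Alternatives were the pseudocount, the filter, quantile normalization, leaving out libraries or times, the form of the time term and the replicate block. No samples were imputed or dropped from the main fits.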

Additional observations from a re-analysis of the deposited data

How the results depend on the processing

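The number of members called for iDTR skin against control was 22 to 23 with each library left out, for Bmal1-flox against control 3 to 5, for iDTR against Bmal1-flox 23, and for bone marrow 6 to 7. Bmal1-flox calls were 7 under quantile normalization. The single liver call (0 to 1 with a library left out) was 0 under quantile normalization, with the 24 h wave in place of the ZT factor, without ZT 5, 9 or 13, and without the ZT 9 IgG library that stood apart, and it was 2 without ZT 1. Counts of rhythmic members moved most, and the shares of all genes under these settings are not given here. In bone marrow under anti-Ly6G, dropping ZT 1 left 4 members, dropping any of ZT 5, 9, 13, 17 and 21 left 1, and dropping a library left 1 to 3. In gut the IgG count was 3 without ZT 17, 5 without ZT 21, 19 with ZT as a factor and 4 to 10 with a library left out, and the anti-Ly6G count was 3 without ZT 5, 22 with ZT as a factor and 8 to 15 with a library left out. In liver the IgG count was 11 without ZT 17 and 14 to 22 with a library left out, the anti-Ly6G count was 24 to 25, and the members at an unadjusted p under 0.05 for a differential rhythm were 13 without ZT 5 and 18 to 21 with a library left out. The median peak shift of the liver enzymes ran from -3.62 to -2.24 h with a library left out and their median amplitude ratio from 1.58 to 1.91. In lung the IgG count was 2 without ZT 1, 10 without ZT 5, 3 with ZT as a factor and 3 to 9 with a library left out, and under anti-Ly6G dropping ZT 1 left 0 members, dropping ZT 9 left 3, dropping ZT 21 left 1, ZT as a factor left 3 and dropping a library left 4 to 6. Rhythmic members in iDTR skin were 1 to 2. Dropping a time leaves fewer libraries and times for the wave, and the cause of the other moves was not tested. No alternative called a member for a differential rhythm at an adjusted p under 0.05. Which antibody group had more rhythmic members could change with the setting. In lung the main counts were 6 under IgG and 5 under anti-Ly6G. The IgG count was 3 without IgG replicate 7, where the anti-Ly6G count was at least 4. In gut the main counts were 8 under IgG and 14 under anti-Ly6G, and the anti-Ly6G count was 3 without ZT 5.

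The replicate numbers did not pair the samples: the same-numbered gut libraries had correlations of their deviations from -0.40 to 0.04 over 18 pairs, and 0 exceeded 0.1. In skin 2 of 16 iDTR pairs and 1 of 15 Bmal1-flox pairs did. With the replicate block, calls stayed at 0 in gut and at 23, 4 and 23 for the skin contrasts. No paired fit was made in the other tissues. The deposited values give no read counts, so the error of low members such as Npc1l1 cannot be split into counting and animal variation.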
